A study of Mus musculus with 2 samples.

Results

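The 10 genes described here encode receptors and adaptors of Toll-like receptor signalling, namely Tlr1, Tlr2, Tlr3, Tlr4, Tlr5, Tlr6, Tlr9, Cd14, Myd88 and Ticam1. They were taken by name from 21883 protein-coding genes, and each was given a window of its RefSeq gene body and 10 kb on each side. Every peak region with at least 1 bp in a window was counted, which gave 33 of the 165968 regions of the untreated library and 50 of the 226476 regions of the IL-4 library. The libraries came from mouse primary alveolar macrophages, the macrophages of the lung airspaces, obtained by bronchoalveolar lavage of wild-type mice. CUT&Tag, in which an antibody guides a transposase to cut and tag nearby DNA, was done with an antibody against the phosphatase PHLPP1. One group was untreated and the other was given interleukin-4 (IL-4), a cytokine of alternative macrophage activation, over 4 h at a concentration of 20 ng/ml. Each group had 1 library, and the strain, age and number of mice are not given in the sources used here. With 1 library per group no test between the groups was possible, and no library of a control antibody was analysed here.

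Toll-like receptors recognise molecules of microbes and start inflammatory signalling. Tlr2, which pairs with Tlr1 or Tlr6, recognises bacterial lipoproteins, Tlr4 recognises lipopolysaccharide with the help of Cd14, and Tlr5 recognises flagellin. Tlr3 and Tlr9 sit in endosomes and recognise double-stranded RNA and unmethylated CpG DNA. Myd88 is the adaptor of all of these receptors except Tlr3, and Ticam1 (TRIF) is the adaptor of Tlr3 and of Tlr4 from the endosome. Alveolar macrophages use these receptors to detect inhaled microbes.

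Most of the starts of these genes lay under or beside a PHLPP1 region in both libraries. The bases just before the starts are shown because the regions covered some of them and not others. They are the 250 bases before the RefSeq start (GRCm38.p6, the assembly behind mm10), and RefSeq promoter entries matched 8 of the 10 genes. No entry matched Tlr4 or Cd14. Capitals mark matches, on either strand, to any of 9 motifs, which can overlap.
Tlr2: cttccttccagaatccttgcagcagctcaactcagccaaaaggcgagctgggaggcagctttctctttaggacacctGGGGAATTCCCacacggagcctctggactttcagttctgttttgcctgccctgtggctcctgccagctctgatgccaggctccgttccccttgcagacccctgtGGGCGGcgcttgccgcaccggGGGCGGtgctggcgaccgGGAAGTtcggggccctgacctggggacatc
Tlr6: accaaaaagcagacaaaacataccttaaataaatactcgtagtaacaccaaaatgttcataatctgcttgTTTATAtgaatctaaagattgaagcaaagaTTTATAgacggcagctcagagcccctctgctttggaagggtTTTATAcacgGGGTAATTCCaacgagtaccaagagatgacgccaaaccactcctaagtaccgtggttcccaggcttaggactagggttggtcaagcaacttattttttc
Tlr1: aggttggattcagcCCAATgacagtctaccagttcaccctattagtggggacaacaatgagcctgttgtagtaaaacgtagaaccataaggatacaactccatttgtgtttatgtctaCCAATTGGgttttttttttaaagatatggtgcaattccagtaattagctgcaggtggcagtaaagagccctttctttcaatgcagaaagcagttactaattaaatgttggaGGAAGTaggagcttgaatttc
Tlr3: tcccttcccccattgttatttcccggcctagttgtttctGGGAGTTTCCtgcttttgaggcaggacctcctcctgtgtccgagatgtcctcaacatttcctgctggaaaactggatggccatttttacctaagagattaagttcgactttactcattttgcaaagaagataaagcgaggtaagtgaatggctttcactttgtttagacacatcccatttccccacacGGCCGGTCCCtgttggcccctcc
Tlr9: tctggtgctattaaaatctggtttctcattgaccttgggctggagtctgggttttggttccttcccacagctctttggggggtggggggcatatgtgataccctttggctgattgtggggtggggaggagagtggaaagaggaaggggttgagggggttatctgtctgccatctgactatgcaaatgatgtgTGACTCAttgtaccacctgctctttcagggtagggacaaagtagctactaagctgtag
Myd88: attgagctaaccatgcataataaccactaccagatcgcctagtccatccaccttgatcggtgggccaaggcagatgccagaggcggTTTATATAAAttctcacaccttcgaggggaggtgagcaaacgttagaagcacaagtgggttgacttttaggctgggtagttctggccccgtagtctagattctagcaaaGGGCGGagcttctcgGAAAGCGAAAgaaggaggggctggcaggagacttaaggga
Ticam1: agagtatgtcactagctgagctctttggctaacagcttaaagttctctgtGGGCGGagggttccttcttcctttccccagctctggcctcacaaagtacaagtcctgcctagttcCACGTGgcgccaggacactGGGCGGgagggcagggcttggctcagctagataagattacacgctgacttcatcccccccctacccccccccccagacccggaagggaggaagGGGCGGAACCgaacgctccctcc
The windows shown lie at chr3:83841609-83841858 (Tlr2), chr5:64960049-64960298 (Tlr6, upper of 2 starts), chr5:64933559-64933808 (Tlr1, upper of 2 starts), chr8:45410381-45410630 (Tlr3), chr9:106222348-106222597 (Tlr9), chr9:119340019-119340268 (Myd88) and chr17:56276768-56277017 (Ticam1). Only Tlr9 lies on the plus strand, and the others are printed as the reverse complement of it.

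The regions covered all 250 of these bases at Tlr2 and Ticam1 in both libraries. At Tlr9 they covered 160 bases without IL-4 and 250 with IL-4, at Myd88 72 and 198, and at Tlr3 86 and 156. The bases before the upper Tlr6 start were covered only with IL-4, at 223 of 250. No base was covered at Tlr5, at the lower Tlr6 start or at either Tlr1 start. Thus 5 genes had covered bases before the start in both libraries, Tlr6 in 1 library, and Tlr1 and Tlr5 in neither. Over all 32851 promoter entries, 32.0% had a covered base without IL-4 and 40.8% with IL-4. These are shares of entries and not of genes, and Tlr1 and Tlr6 have 2 entries each, so the gene counts are not directly comparable.

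Coverage over all entries went with the number of CG dinucleotides in the 250 bases. Of the 14591 entries with 0 to 4 CG, 9.40% were touched by an untreated region and 15.6% by an IL-4 region, and of the 5896 with 20 or more, 66.9% and 77.1%. The Toll-like receptor starts were poor to middling in CG. Tlr2 had 11, Myd88 and Ticam1 9 each, Tlr3 and the upper Tlr6 start 6 each, and Tlr5 and the lower Tlr6 start 4 each. The Tlr9 stretch held 0 CG and was covered in both libraries. The upper Tlr1 start held 1 CG and the lower one 8, and neither was covered.

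The motif matches differed between the genes. GGG and CC separated by any 5 bases, a loose NF-κB pattern found in 45.8% of all entries, matched at Tlr2, Tlr3, Tlr5, Ticam1 and the upper Tlr6 start. At Tlr2 it was the palindrome GGGAATTCCC, 172 to 163 bases before the start. Myd88 held GAAAGCGAAA, a match to the interferon regulatory factor pattern of GAAA, any 2 bases and GAAA (2.98% of entries), 40 to 31 bases before its start. That pattern also matched on the other strand at the lower Tlr6 start, in 2 overlapping places. Tlr9 held TGACTCA, a match to the AP-1 pattern TGANTCA (6.75% of entries), 58 to 52 bases before its start. GGAAGT, the core of ETS factors and PU.1 (19.7% of entries), matched at Tlr2, at the upper Tlr1 start and, on the other strand, at the lower Tlr6 start. The STAT6 pattern of TTC, any 4 bases and GAA (5.85% of entries) matched none of the stretches of the 8 genes. GGGCGG (GC box, 32.7%) matched at Tlr2, Tlr5, Myd88 and Ticam1, CACGTG (E-box, 6.02%) at Ticam1 and the lower Tlr1 start, CCAAT (33.8%) at Tlr5 and the upper Tlr1 start, and TATAAA (12.4%) at Myd88 and the upper Tlr6 start.

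**Figure D1:**
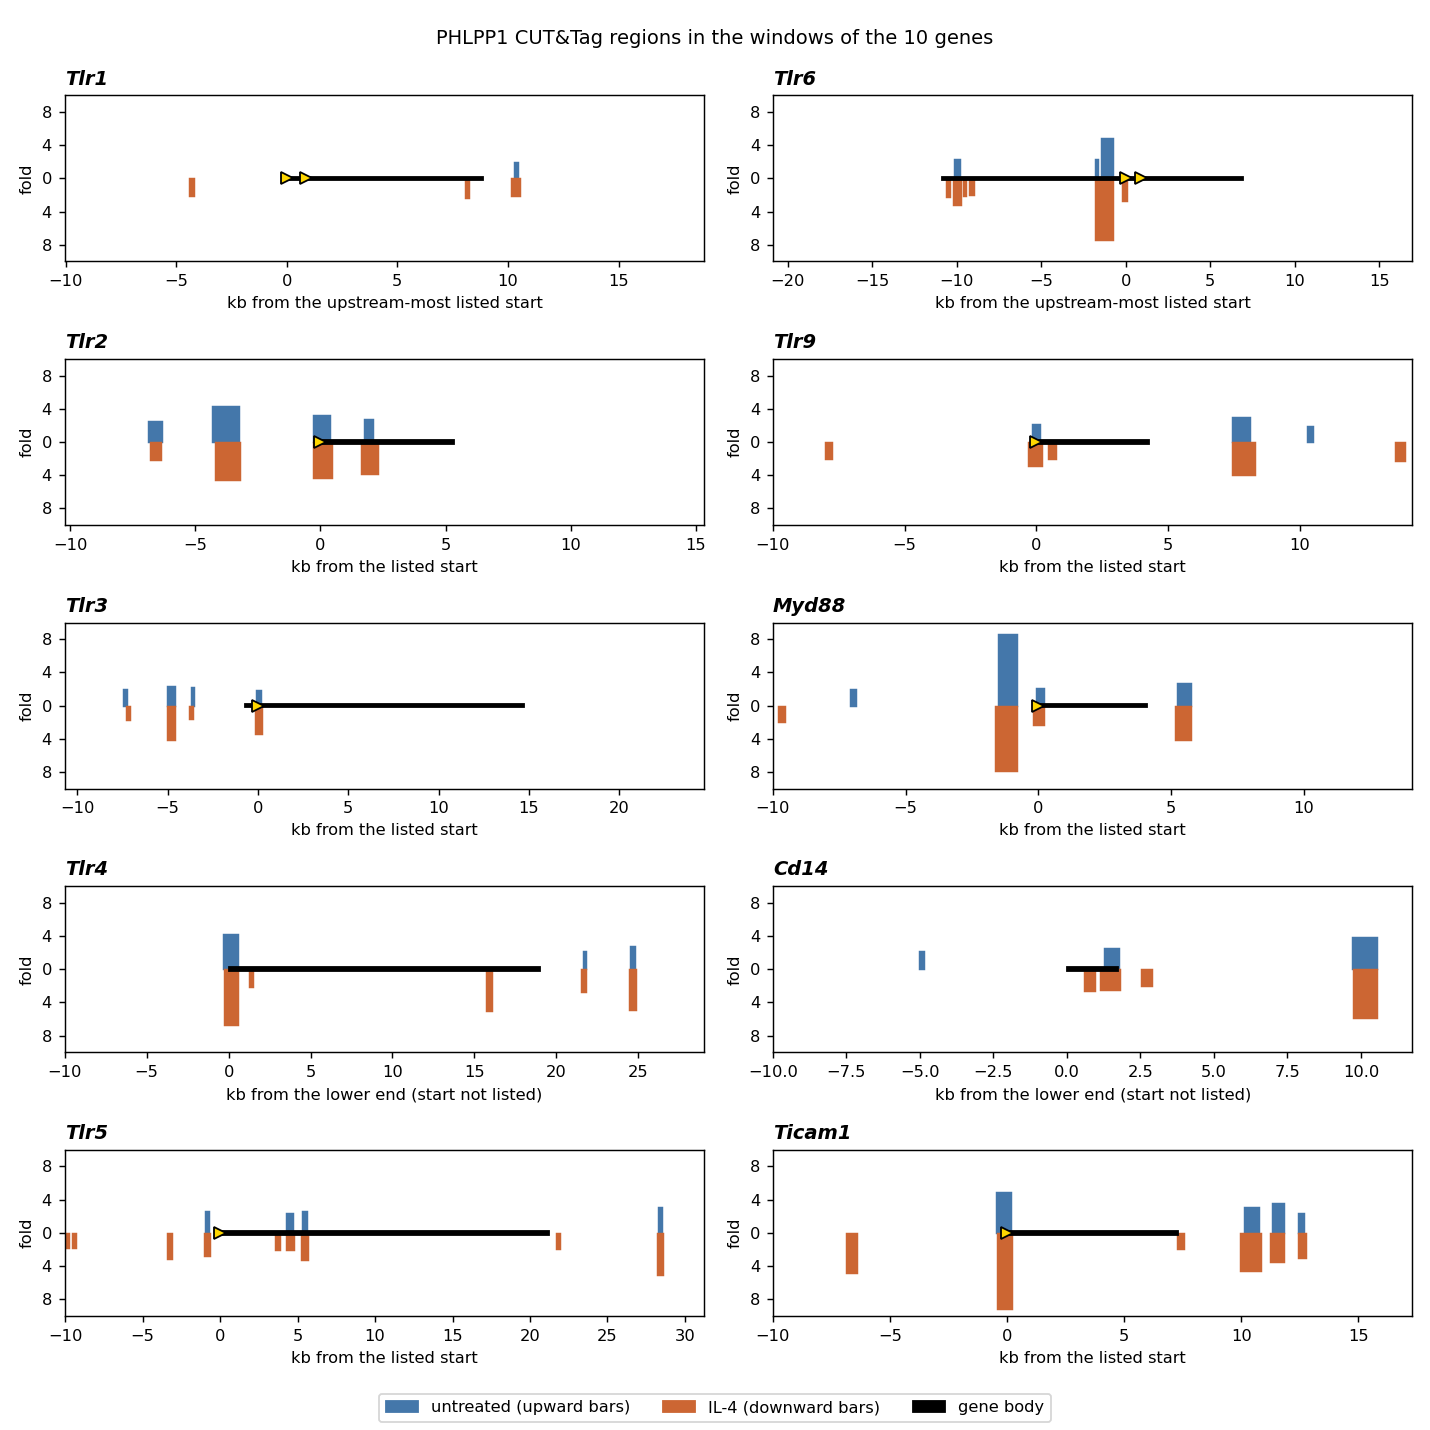
Regions in the window of each gene, plotted by distance in kb from the listed start, with upstream to the left (from the lower end for Tlr4 and Cd14). Bar height is the fold of each region in its own list, upward for the untreated library and downward for the IL-4 library, the black line is the gene body and arrowheads are listed starts. Tlr1 has 1 untreated and 3 IL-4 regions, all of fold under 3, while Ticam1 has its highest region, at folds of 4.96 and 9.20, over its start.

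In the following, fold is the authors' own value for each region, taken here as the ratio of the fragments piled up at its summit to the background expected there, with 1 added to both. Folds of the 2 lists are set side by side without scaling, and more signal per cell cannot be told apart from more cells with signal. Where 2 folds are given for a shared region, the untreated one comes first. A region is called shared when it has at least 1 bp in common with a region of the other list. Of the untreated regions in the windows 30 of 33 were shared (90.9%, exact 95% Clopper-Pearson interval 75.7 to 98.1), against 62.9% of the whole untreated list. Of the IL-4 regions 29 of 50 were shared (58%, 43.2 to 71.8), against 45.6% of the whole IL-4 list. These and all later intervals cover counting error only, and reads without molecular identifiers are not independent molecules. The windows thus held 3 regions of the untreated library alone, at 3 genes, and 21 of the IL-4 library alone, at 8 genes. Every gene had at least 1 region in each library, and over all protein-coding genes 86.9% had 1 in such a window without IL-4 and 90% with IL-4.

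Pooled over their length, the windows were more densely filled than the pooled windows of all protein-coding genes, in which long genes weigh most. By gene the difference was smaller with IL-4. The share of protein-coding genes with a lower density ranged from 27.0% (Tlr1) to 89.1% (Myd88) without IL-4. With IL-4 it ranged from 45.0% (Tlr1) and 47.9% (Tlr3) to 80.8% (Ticam1). The 10 windows together held 1.08 untreated and 1.64 IL-4 regions per 10 kb, against 0.746 and 1.14 over the pooled windows of all protein-coding genes. The regions covered 4.79% and 7.50% of their length, against 2.79% and 4.64%. The regions were also stronger than their lists. A fold of 3 or more was reached by 11 of the 33 untreated regions (33.3%) and 22 of the 50 IL-4 regions (44%), against 9.12% and 12.9% of the lists. The lists include regions far from genes, so these shares are a description of the windows. Median widths were 367 bp (range 200 to 1101) without IL-4 and 379 bp (200 to 1087) with IL-4, against 300 and 327 bp in the lists.

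**Figure D2:**
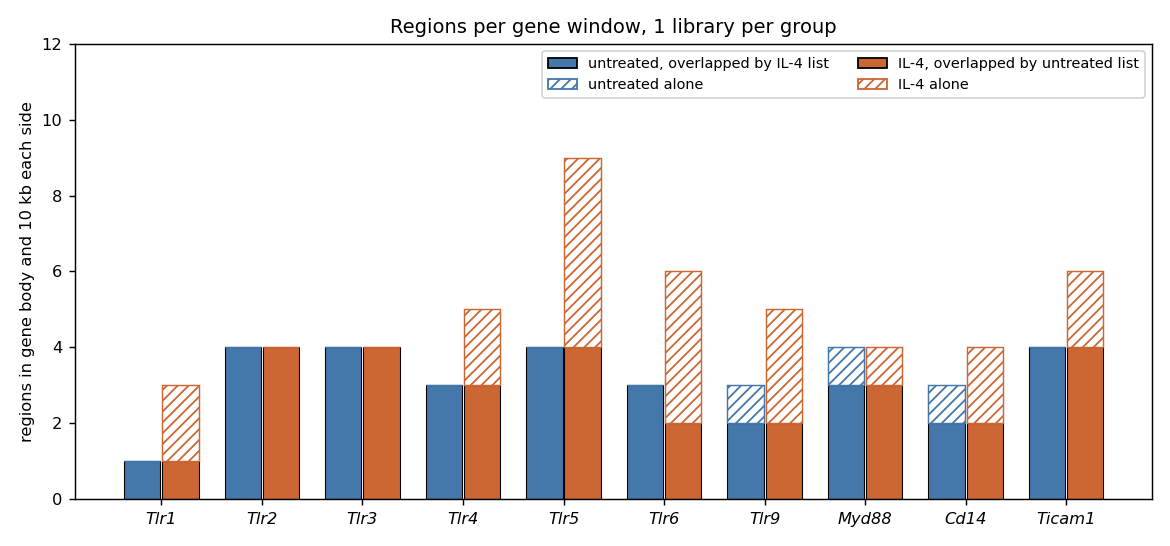
Number of regions in the window of each gene in the untreated (blue) and IL-4 (orange) library, 1 library each. Filled bars are regions shared with the other list and hatched bars are regions in 1 library alone, and Tlr2 and Tlr3 have 4 shared regions in each library and none in 1 library alone.

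The number of regions in a window was higher with IL-4 at 7 genes and equal at 3, namely Tlr2, Tlr3 and Myd88. Over all protein-coding genes it was higher with IL-4 at 68.8% and equal at 20.2%, so the count of 7 is near the background of the longer IL-4 list. Tlr5 differed most, with 4 regions without IL-4 and 9 with IL-4. Tlr1 had the fewest, at 1 and 3 regions. Per 10 kb of window, the untreated list ranged from 0.346 at Tlr1 to 1.66 at Myd88, and the IL-4 library from 1.04 at Tlr1 to 2.2 at Ticam1. Tlr1 was the only one of the 10 with a region density below that of most protein-coding genes in both libraries, above 27.0% of them without IL-4 and above 45.0% with IL-4.

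A region lay within 1 kb of the start at 9 of the 10 genes in each library, all but Tlr1, and these were the same 9 genes, against 52.1% of all protein-coding genes with one in both. For Tlr4 and Cd14 either end of the gene was used. The same rule gave 55.1% of all protein-coding genes without IL-4 and 66.8% with IL-4, and 14.7% only with IL-4. None of the 10 genes was in that last class or in the 2.99% with one in the untreated list alone, and Tlr1 was among the 30.2% with one in neither. Among the 8 genes with a listed start it was 7 in each library, against 55.2% and 66.2% of all genes with a listed start. With a fold of 3 or more the start was marked at 5 genes without IL-4 and 6 with IL-4, against 26.2% and 40.2% of all genes. With a −log10 q of 5 or more it was marked at 5 and 9 genes, against 32.8% and 50.6%. Myd88 entered both fold counts and the untreated q count only through a region over the start of its neighbour Acaa1a. The region over its own start had folds of 2.09 and 2.30 and an untreated −log10 q of 2.90. All 10 untreated regions at starts were shared, as were 10 of 14 IL-4 regions there. Of the regions at the starts of all protein-coding genes 89.7% and 66.3% were shared, so these counts lie near the background.

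**Figure D3:**
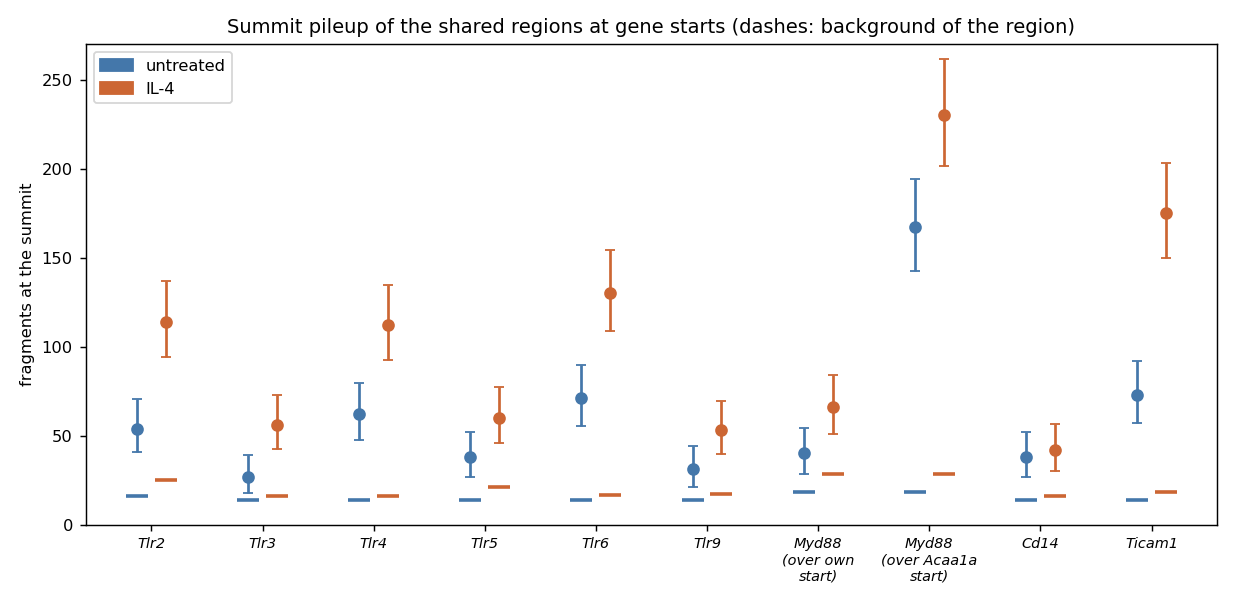
Fragments at the summit of each shared region within 1 kb of a gene start (either end for Tlr4 and Cd14), with exact 95% Poisson intervals for counting error and, as dashes, the background of the region, in the untreated (blue) and IL-4 (orange) library. Values are not scaled for depth, and the constant background of the libraries was 13.9 and 15.9 fragments. The highest region of the Myd88 window, at 167 and 230 fragments, lies over the start of Acaa1a.

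Among the receptors for lipoproteins, Tlr2 (chromosome 3, 83836272 to 83841824, mm10) carried 4 shared regions and none in 1 library alone. The region over its start lay at 83841214 to 83841912 without IL-4, with a fold of 3.25, and at 83841161 to 83841906 with IL-4, with a fold of 4.38. Its summit pileup was 54 fragments (95% Poisson interval 40.6 to 70.5) without IL-4 and 114 (94.0 to 137) with IL-4. The background also differed, at 15.9 and 25.2 fragments. The highest fold in the window was not at the start but upstream of it, in a region 3241 bp from the start without IL-4, at 83844849 to 83845949. At 1101 bp that was the widest untreated region of all 10 windows, with folds of 4.31 and 4.55 and summits 53 bp apart. Another shared region lay inside the gene, at folds of 2.82 and 3.87. The last, farther upstream, was listed at 2.55 and 2.17.

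Tlr6 (chromosome 5, 64953092 to 64970942), the partner of Tlr2 for diacylated lipoproteins, had its strongest region inside the gene body, upstream of both listed starts. It lay at 64960806 to 64961544 without IL-4, 758 bp from the upper start, with a fold of 4.83 and 71 fragments (55.5 to 89.6) at the summit. With IL-4 it lay at 64960820 to 64961906, with a fold of 7.48 and 130 fragments (109 to 154). That IL-4 region was 1087 bp wide and joined what were 2 regions in the untreated list, the second at 64961674 to 64961873 with a fold of 2.28. A separate region over the upper start itself, at 64959986 to 64960271, was called only with IL-4, with a fold of 2.73, and the nearest untreated region was 535 bp away. At the far end of the gene body the start of Fam114a1 lies inside Tlr6. A shared region there, with folds of 2.35 and 3.20, and 3 regions of the IL-4 library alone, with folds of 2.02 to 2.25, lay within 1 kb of an end of Fam114a1.

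Tlr1 (chromosome 5, 64924680 to 64933600), the partner of Tlr2 for triacylated lipoproteins and the neighbour of Tlr6, had no region within 1 kb of either start. Its only shared region lay beyond the 3′ end, at 64923103 to 64923302 without IL-4, with folds of 1.94 and 2.08 and summits 11 bp apart. The IL-4 library alone had a region in the gene body (64925305 to 64925504, fold 2.37) and a region 4184 bp upstream of the upper start (64937742 to 64937968, fold 2.13). All 4 regions had a −log10 q below 5. The strongest fold in its window exceeded that of 14.6% of protein-coding genes without IL-4 and 18.5% with IL-4, the lowest of the 10 genes in each.

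Tlr4 (chromosome 4, 66827551 to 66846581), the lipopolysaccharide receptor, carried a strong region over its lower end in both libraries. It lay at 66827220 to 66828118 without IL-4, with a fold of 4.22 and 62 fragments (47.5 to 79.5), and at 66827255 to 66828101 with IL-4, with a fold of 6.70 and 112 fragments (92.2 to 135). The Poisson intervals of the summits did not overlap, before any scaling for depth. Inside the gene a region at 66843267 to 66843608 was called only with IL-4, with a fold of 4.98 and 83 fragments (66.1 to 103). By fold it ranked 16 among the 123206 IL-4 regions with no untreated counterpart, and the nearest untreated region lay 5562 bp away. Beyond the upper end, 2 shared regions had folds of 2.15 and 2.79 and of 2.75 and 4.92, with summits 8 and 9 bp apart.

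Cd14 (chromosome 18, 36725064 to 36726815), the co-receptor that passes lipopolysaccharide to Tlr4, had modest regions of its own. The shared region over its upper end was listed at folds of 2.62 and 2.55, with 38 fragments (26.9 to 52.2) without IL-4 and 42 (30.3 to 56.8) with IL-4, so the intervals overlapped. The IL-4 library alone had a region inside the gene (fold 2.67) and a region 784 bp beyond the upper end (fold 2.08). The untreated library alone had a weak region 4843 bp beyond the lower end (fold 2.15). The strongest region in the window, with folds of 3.89 and 5.93, lay over the lower end of Tmco6, a gene 8204 bp from Cd14.

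Tlr5 (chromosome 1, 182954752 to 182976044), the flagellin receptor, had 4 shared regions and 5 of the IL-4 library alone. The region nearest its start, at 182953789 to 182954085 without IL-4, stopped 703 bp upstream of it, with folds of 2.62 and 2.74 and summits 10 bp apart. Inside the gene, shared regions were listed at folds of 2.43 and 2.01 and of 2.64 and 3.29. The strongest region lay beyond the 3′ end, at 182983029 to 182983315 without IL-4, with folds of 3.15 and 5.12 and summits 5 bp apart. Of the IL-4 regions with no untreated counterpart, the strongest lay 3134 bp upstream of the start (182951375 to 182951654, fold 3.20), with an untreated region 2135 bp away. The other 4 had folds of 1.84 to 2.08 and a −log10 q below 5.

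The endosomal receptors Tlr3 and Tlr9 had regions right over their starts, which were weak in the untreated list. At Tlr3 (chromosome 8, 45395665 to 45411075) the start region at 45410218 to 45410466 had a fold of 1.88 without IL-4, with its summit 8 bp upstream of the start. The corresponding IL-4 region, at 45410162 to 45410536, had a fold of 3.38. The summits held 27 fragments (17.8 to 39.3) and 56 (42.3 to 72.7), intervals that did not overlap before any scaling for depth. Among all genes with a start region, 2.86% had a lower start fold than Tlr3 without IL-4 and 47.2% with IL-4. A region 4615 bp upstream of the start, at 45414995 to 45415387, was listed at 2.35 and 4.2, with 34 fragments (23.5 to 47.5) and 79 (62.5 to 98.5). The other 2 shared upstream regions were listed at lower folds in the IL-4 list, at 2.28 and 1.66 and at 1.94 and 1.78, and each had a −log10 q below 5 in both lists.

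At Tlr9 (chromosome 9, 106222598 to 106226876) the untreated region at 106222438 to 106222721 had a fold of 2.15, with its summit 4 bp upstream of the start. The IL-4 region there was wider, 533 against 284 bp, with a fold of 2.94. The summits held 31 fragments (21.1 to 44.002) and 53 (39.7 to 69.3), and these intervals overlapped. The strongest region of the window lay in the interval between Tlr9 and Alas1 (the first enzyme of haem synthesis), at 106230042 to 106230707 without IL-4, with folds of 3.02 and 3.92. Near the 3′ end of Alas1, a weak region of fold 1.94 had no IL-4 counterpart. Regions within Tlr9 (fold 2.02), inside Alas1 (2.25) and near an end of Twf2 (2.08) had no untreated counterpart.

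Of the adaptors, Myd88 (chromosome 9, 119335934 to 119340018) had a modest region over its own start and a far stronger one over that of its neighbour. Its own region lay at 119339808 to 119340090 without IL-4, with folds of 2.09 and 2.30. The neighbouring gene Acaa1a (a peroxisomal thiolase) begins 1010 bp away and runs in the opposite direction. The region over its start, at 119340834 to 119341544, had folds of 8.58 and 7.82, the highest of all 10 windows without IL-4. Its summit held 167 fragments (143 to 194) without IL-4 and 230 (201 to 262) with IL-4, over backgrounds of 18.6 and 28.5, and the fold was lower in the IL-4 list although the pileup was higher. The start fold of Myd88 by the 1 kb rule is that of the Acaa1a region. Another shared region, past the 3′ end of Myd88, was listed at 2.68 and 4.15.

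Ticam1 (chromosome 17, 56269462 to 56276767) carried the strongest start region of its own among the 10 genes. It lay at 56276596 to 56277231 without IL-4 and 56276560 to 56277211 with IL-4, with folds of 4.96 and 9.20 and summits 6 bp apart. The summits held 73 fragments (57.2 to 91.8) and 175 (150.03 to 203). With IL-4 97.3% of genes with a start region had a lower fold there, and without IL-4 85.1%. Between Ticam1 and Fem1a, 3 shared regions followed one another, with folds of 2.35, 3.62 and 3.15 without IL-4 and 3.03, 3.53 and 4.61 with IL-4. Inside Plin3, a lipid droplet protein gene upstream of Ticam1, a region at 56283179 to 56283652 was called only with IL-4. Its fold of 4.86 ranked 22 among the same 123206 regions, and no untreated region lay within 5948 bp.

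Shared regions overlap by definition, and their summits in these windows lay about as far apart as in the whole lists. The 30 untreated shared regions matched 29 IL-4 regions, and their summits were a median of 68.5 bp apart, against 69 bp for all shared regions of the lists. Of the 30, 21 had summits within 100 bp, or 70%, against 61.9% of all. The IL-4 region was the wider one in 26 of 30 pairs (86.7%), against 65.4% of all pairs. Regions without an untreated counterpart were mostly weak, with folds of 1.84 to 4.98 and a median of 2.08, equal to the 2.08 of all such regions. Of the 21, 3 reached a fold of 3, at Tlr4, Ticam1 and Tlr5, and 5 a −log10 q of 5. Of all IL-4 regions with no untreated counterpart, 3.13% reached that fold and 16.2% that q. The regions at Tlr4 and Ticam1 also passed a fold of 4, which 0.219% of all such regions did. An untreated region lay within 1 kb of 9 of the 21.

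Most of 45 other genes of the pathway carried start regions. A region lay within 1 kb of the start at 36 of the 45 genes without IL-4 and 40 with IL-4, 36 of them in both, against 55.1% and 66.8% of all protein-coding genes. Either end of the gene was used where no start is listed. The 4 genes with a start region only with IL-4 were Ly96 (MD-2, the lipopolysaccharide-binding partner of Tlr4, fold 2.85), Tlr11 (2.67), Sarm1 (a TIR-domain adaptor, 2.67) and Irak1 (a receptor-associated kinase, 2.37). No gene had one only without IL-4. Over all protein-coding genes 14.7% had one only with IL-4 and 2.99% only without, so neither count of the 45 lies above the background. Of 10 other receptors and co-receptors 4 had a start region without IL-4 and 6 with IL-4, counts near those background shares, and none of the 4 reached a fold of 3. Neither library had a start region at Tlr7, Tlr8, Tlr12 or Tlr13. Of these Tlr7, Tlr8 and Tlr13 lie on the X chromosome, which held 0.460% of the untreated list and 0.425% of the IL-4 list. The X-linked pathway genes Ikbkg (2.15 and 4.57) and Tab3 (3.35 and 3.08) had start regions in both libraries, and Irak1 only with IL-4.

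The group of kinases and ligases, the adaptors, the inhibitors and the trafficking genes had higher median start folds than the other receptors and the transcription factors. The group of kinases and ligases also held partner proteins (Tab1, Tab2, Tab3, Ikbkg and Ecsit) and members of the ubiquitin-conjugating enzyme family (Ube2n and Ube2v1). It had a start region at 18 of 20 genes without IL-4 and 19 with IL-4, with median folds of 3.45 and 4.68. Over all genes with a start region the medians were 2.88 and 3.50. Ikbke (the kinase IKKε) had none in either list. The trafficking genes had one at 4 of 4, the inhibitors at 5 of 5, the transcription factors at 3 of 3 in each library, and the adaptors at 2 and 3 of 3. The inhibitor Sigirr has no listed start and was counted through different ends. Its untreated region (fold 1.85) lay beyond the upper end and its IL-4 region (1.70) at the lower end. The highest start folds without IL-4 were at Hsp90b1 (the chaperone of Toll-like receptors, 8.42), Peli1 (a ubiquitin ligase, 7.31), Irak4 (the kinase next to Myd88, 7.04), Cyld (a deubiquitinase, 5.50) and Tollip (an inhibitor, 5.36). With IL-4 they were at Peli1 (9.90), Cyld (9.21), Hsp90b1 (9.08), Ube2n (a ubiquitin-conjugating enzyme, 8.36) and Map3k7 (the kinase TAK1, 8.06). Ticam1, at 9.20 with IL-4, lay in the range of these last 5 genes.

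**Figure D4:**
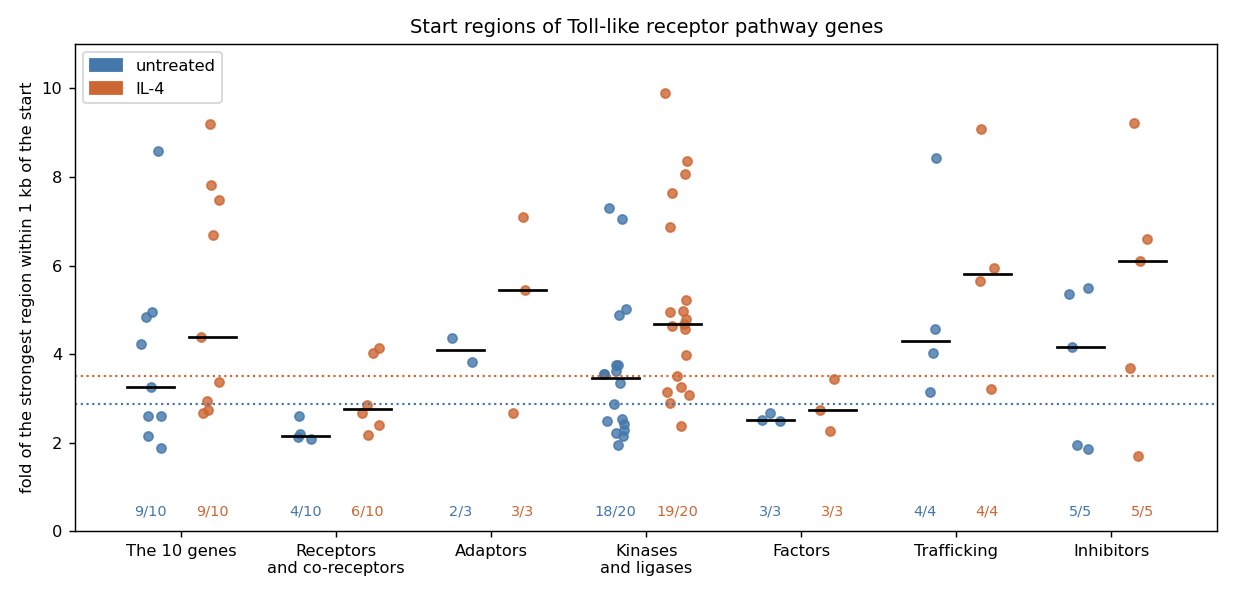
Fold of the strongest region within 1 kb of the start (either end where no start is listed) for the 10 genes and for 45 other pathway genes by role, in the untreated (blue) and IL-4 (orange) library. Each point is a gene, black bars are medians over the genes with such a region, fractions give those genes of all in the group, and dotted lines are the medians of 2.88 and 3.50 over all protein-coding genes with one. The other receptors and co-receptors and the transcription factors have the lowest medians. The Myd88 points are the region over the start of Acaa1a, and neighbouring starts were not examined for the 45 other genes.

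The cell type in the labels was compared with marker genes, and most macrophage genes carried start regions but at modest folds. Of 12 alveolar macrophage genes 11 had a start region in both libraries, all but Chil3. Their median start folds were 2.35 and 2.79, below the 2.88 and 3.50 of all genes with a start region, and 3 and 5 of the 12 reached a fold of 3. Of 6 lymphocyte genes 0 had one without IL-4 and 2 with IL-4, of 6 lung epithelium genes 3 and 4, and of 6 neutrophil genes 2 and 3. Over all protein-coding genes 55.1% had one without IL-4 and 66.8% with IL-4, and the lung epithelium counts lie near these shares. The neutrophil medians, over only those 2 and 3 genes, were 3.42 and 3.14. The neutrophil gene S100a8 carried folds of 4.89 and 7.11, while S100a9 and Ngp had no start region in either library. Mpo had one only without IL-4 (1.94), and Csf3r (3.14) and Ly6g (2.19) only with IL-4. The part of other cells in the Toll-like receptor regions was not tested.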

How the data were processed

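Bowtie 0.12.8, MACS2 2.2.7.1, DiffBind and mm10 are named per the submitters' processing notes, with no role or order. Caller settings and any control library are not given in the sources used here. For each region the 2 deposited lists, 1 per library, hold a fold (a ratio to that library's own background), a −log10 p and a −log10 q. The score column of the deposited lists lies within 1 of 10 times −log10 p and was not used.

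The depth in reads is not stated. Summit pileup and background were solved from fold and p, taking fold as pileup plus 1 over background plus 1 and p as a Poisson tail. Pileups came out whole within 0.05 for 100% of the regions solved (99.9% of each list). The recovery and the overlap count were tested on simulated data. Poisson intervals cover counting error only.

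Regions were joined to RefSeq genes of GRCm38.p6 by at least 1 bp. Starts came from RefSeq promoter entries (17491 of 21883 genes), otherwise either end was used. Exons, introns and UTRs were not analysed here. The genes and lists were chosen with earlier results of these data known. Named genes were the 10, pathway genes with a start region in 1 library alone, the 5 of highest start fold in each library, and genes whose end lay within 1 kb of a region. Other genes (Plin3, Tlr12, Ikbke, Chil3 and others) were named after their values were seen. Alternatives covered q and fold limits, equal list lengths, merging, windows, overlap rules and, for pileup ratios, the background used as scale. Python 3.11.15, numpy 2.4.6, pandas 2.3.3, scipy 1.17.1 and matplotlib 3.10.9 were used.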

Additional observations from a re-analysis of the deposited data

How the results depend on the processing

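Of 59 values recomputed under other settings, 45 stayed within 1.5 times the reported count or within the reported interval, and 14 moved, 1 of them the pileup ratio over the start of Acaa1a (1.21 by the constant background, 0.897 by that at the region). The Tlr2 start ratio stayed within its interval, but its new interval spans 1. The numbers of regions in the windows, 33 untreated and 50 IL-4, were 15 and 29 at a −log10 q of 5 or more, 11 and 22 at a fold of 3 or more, 13 and 23 in the gene bodies alone, and 57 and 80 with 20 kb on each side. The share of untreated regions shared, 90.9%, was 100% at each of those q and fold limits and in the gene bodies alone. Nearly all untreated regions of the whole list with a fold of 3 or more also overlapped an IL-4 region of any fold. The 100% at the fold limit therefore lies near the background of strong regions and is not particular to these windows. The share of the whole list at the q limit or in gene bodies was not counted. The genes with an untreated start region numbered 5, not 9, at either limit, with Myd88 among the 5 only through the Acaa1a region. Fewer regions pass these limits by construction. With equally long lists the IL-4 windows held 44 regions, and with regions closer than 300 bp merged also 44. With 1 kb around either end of the gene, Tlr1 also had a region in the IL-4 library, for 10 of 10 genes. The count restricted to the 8 genes with a listed start was chosen after seeing the data and gave 7 of 8 in each library. No paired analysis was possible because each group holds 1 library. Depth limits weak regions most, since a region of 28 fragments has a Poisson interval of 18.6 to 40.5.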

Other observations

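Summit pileups of the shared regions can be set side by side, with the limit that the libraries' depths are unknown and that the result depends on the scale chosen. Over the 30 shared pairs in the windows the IL-4 pileup was a median of 1.75 times the untreated one before scaling. The constant background was 1.14 times as high with IL-4, and scaled by this the median was 1.54, against 1.11 over all 104335 shared pairs with solved pileups, with a ratio above 1 in 26 of 30 pairs (86.7%) and in 68.3% of all pairs. Scaled by the background at each region, a setting chosen after seeing the data, the median was 1.32, against 1.06, with a ratio above 1 in 23 of 30 pairs (76.7%) and in 61.9% of all. The authors' folds were likewise higher with IL-4 in 23 of 30 pairs, against 63.2% of all pairs. The ratio varied with the untreated fold, and the windows held more strong regions than the list. Scaled by the constant background, the median was 1.45 against 1.10 over all pairs for untreated folds under 3 (19 window pairs). It was 1.72 against 1.22 at folds of 3 to 4 (6 pairs) and 1.59 against 1.37 at 4 to 6 (4 pairs). The 1 pair over 6 had 1.21, against 1.32. These are descriptions of 2 libraries, and nearby pairs of 1 window are not independent.

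At the starts, the counting interval of the ratio lay above 1 under both scales at 4 genes. How often this occurs over all shared pairs was not counted, and their medians also lay above 1. By the constant background the median of all pairs was 1.37 at untreated folds of 4 to 6. That value lies inside the intervals at Tlr4 and Tlr6 and below that at Ticam1. At untreated folds under 3 it was 1.10, below the interval at Tlr3. Scaled by the constant background and then by that at the region, the ratio was 2.10 (95% interval 1.59 to 2.80) and 1.84 (1.39 to 2.45) at Ticam1, and 1.61 (1.19 to 2.18) and 1.54 (1.15 to 2.09) at Tlr6. At Tlr3 it was 1.82 (1.13 to 3.0) and at the lower end of Tlr4 1.58 (1.15 to 2.2), the same under both scales. At Tlr2 it was 1.85 (1.33 to 2.61) by the constant background but 1.33 (0.954 to 1.87), an interval that spans 1, by the background at the region, which was 1.59 times as high with IL-4. The intervals at Tlr5, Tlr9, the upper end of Cd14 and the own start of Myd88 spanned 1 under both scales. Over the start of Acaa1a the ratio was 1.21 by the constant background and 0.897 by that at the region, both with intervals that span 1. The highest ratio by the constant background, 3.45, belongs to the narrow second untreated region of Tlr6, which is paired with the summit of the wide IL-4 region 539 bp away and so compares different places.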
